A study of Homo sapiens with 4 samples.

Results

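Cereblon is the substrate receptor of a ubiquitin ligase that myeloma drugs redirect. The 10 genes described here encode that ligase (CRBN, DDB1, CUL4A, CUL4B and RBX1) and proteins it destroys when such a drug is bound (IKZF1, IKZF3, ZFP91, CSNK1A1 and GSPT1). They were chosen by name, as 10 of the 56809 gene rows of the count table. All 10 passed the filter on low counts and were among the 17885 tested genes. The libraries were made from poly(A) RNA of NCI-H929, a human plasma cell myeloma line in long use, here at the second passage and expressing the nuclease Cas9. The KO group (2 libraries) carried a doxycycline-inducible construct for knockout of BCL7A, a subunit of BAF chromatin remodelling complexes, and the control group (2 libraries) carried a control construct, although sample titles and genotype labels call it wild type. Both groups went through 3 days of puromycin selection and then 24 h with doxycycline at 0.5 ug/ml, and no group is labelled as treated with a cereblon-binding drug. The guide sequence is not given in the sources used here, nor whether the cells were 1 clone. Nothing says that same-group libraries were grown apart, and the p-values then reflect nothing beyond the scatter of these libraries, which may be technical.

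In a cullin-RING ligase the cullin (CUL4A or CUL4B) is the scaffold, RBX1 at one end brings in the ubiquitin-loaded enzyme, and DDB1 at the other end holds an exchangeable receptor such as cereblon. Thalidomide, lenalidomide and pomalidomide fill a pocket of cereblon and create a surface that captures proteins the ligase would otherwise leave alone, called neosubstrates. IKZF1 (Ikaros) and IKZF3 (Aiolos) are lymphoid transcription factors whose loss lowers IRF4 and MYC in drug-treated myeloma cells, and loss of cereblon is a known route to drug resistance. The drugs act on protein, whereas only mRNA was measured here.

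The zinc finger that cereblon captures with these drugs is shown for the 3 zinc finger neosubstrates, because IKZF1 and IKZF3 share it while their mRNAs moved apart in these libraries. The sequences are the coding strand of the GENCODE release 29 transcripts (GRCh38), from the codon of the first zinc-binding cysteine to that of the last zinc-binding histidine. Capitals mark the codons of both cysteines and of the glycine that follows the second of them, the glycine at the tip of the captured hairpin. IKZF1 lies at chr7:50382557-50382619 (plus strand, exon 5), IKZF3 at chr17:39791504-39791566 (minus strand, exon 5) and ZFP91 at chr11:58617197-58617259 (plus strand, exon 11).
IKZF1: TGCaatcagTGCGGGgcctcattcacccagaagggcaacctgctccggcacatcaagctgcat
IKZF3: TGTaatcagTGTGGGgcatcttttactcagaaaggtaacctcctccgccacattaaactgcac
ZFP91: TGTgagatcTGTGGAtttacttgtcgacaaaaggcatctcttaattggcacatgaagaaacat
The fingers of IKZF1 and IKZF3 were identical at 50 of 63 bases and coded the same residue at 21 of 21 positions. The ZFP91 finger matched that of IKZF1 at 30 of 63 bases and coded the same residue at 9 of 21 positions. CSNK1A1 and GSPT1 are captured through other folds and have no such finger to show.

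Gene counts summed to between 38671744 and 40799624 in the KO libraries and between 17567202 and 20153596 in controls, and the KO libraries were thus the deeper ones. BCL7A itself was 1.31 and 1.19 CPM (library-size scaled counts, with TMM factors) in the KO libraries against 42.9 and 45.7 CPM in controls (log2 fold change -5.15, SE 0.11, adjusted p = 3.51e-25). The labels give the cell type as B lymphocyte, and B cell markers differed between the groups. CD79A (84.5 ± 2.34 CPM), BLNK (62.7 ± 0.874) and PAX5 (22.3 ± 0.0750) were present in controls and at 0.165 ± 0.0726, 1.34 ± 0.166 and 0.291 ± 0.00916 CPM in the KO libraries, while MS4A1 was at most 1.19 CPM in any library. All 9 plasma cell markers examined were present in both groups and higher in the KO libraries with TMM scaling. Their summed levels were 11953 to 11965 CPM against 6697 to 6757 CPM. For IRF4 this did not hold under every scaling, and the other markers are given with TMM scaling only. FGFR3 and NSD2, the genes of the t(4;14) translocation that NCI-H929 is known for, were 216 ± 4.29 and 1194 ± 12.6 CPM under knockout. In controls they were 77.9 ± 3.15 and 1017 ± 21.9 CPM (SD, n = 2 per group). With TMM the log2 fold changes of SLAMF7 (0.32), a plasma cell marker, and NSD2 (0.23) were small. Scaling by library totals alone moved the median over all genes by a similar amount (-0.28). Summed levels of 5 epithelial markers were 11.99 to 12.6 CPM under knockout and 66.1 to 70.9 CPM in controls. EPCAM gave most of the control sum and had 0 counts in the KO. KRT8 was also lower in the KO (1.35 ± 0.186 against 9.56 ± 1.08 CPM). KRT18 went the other way (6.49 ± 0.316 against 1.93 ± 1.07 CPM). CDH1 did not pass the threshold (4.46 ± 0.311 against 4.13 ± 1.23 CPM), and KRT19 had 0 counts in all libraries. Summed levels of 5 myeloid markers were 56.9 to 58.6 against 26.2 to 29.6 CPM, nearly all CD68, with MPO at 0. Those of 5 erythroid markers were 0.244 to 0.570 against 4.61 to 5.09 CPM and of 5 fibroblast markers 0.352 to 0.456 against 10.99 to 11.1 CPM. The part of these differences in the results below was not tested. The groups stood far apart, as 478 genes exceeded a 10-fold difference towards the controls and 9 towards the KO, counting genes that reached 5 CPM in the higher group. The sources used here do not say whether both groups came from the same stock of the line, so in every comparison below an effect of the knockout and a difference between stocks cannot be told apart.

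All 10 genes passed the threshold (edgeR's quasi-likelihood test, Benjamini-Hochberg adjusted p under 0.05), 6 higher and 4 lower in the KO libraries. This is close to the background, since 76.2% of all tested genes passed, 36.4% higher and 39.8% lower. Among the 9537 tested genes averaging 10 CPM or more, a level all 10 exceeded, 85.8% passed, 54.2% higher and 31.7% lower. The groups did not overlap for any of the 10, as for 87.4% of all tested genes (41.3% higher and 46.1% lower). The members' median log2 fold change was 0.28, against -0.06 over all tested genes and 0.19 over those with at least 10 CPM. The count of changed members is therefore not a result about them, and the sizes and the contrasts between members are given instead. In what follows, rose and fell give the direction from control to KO.

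**Figure D1:**
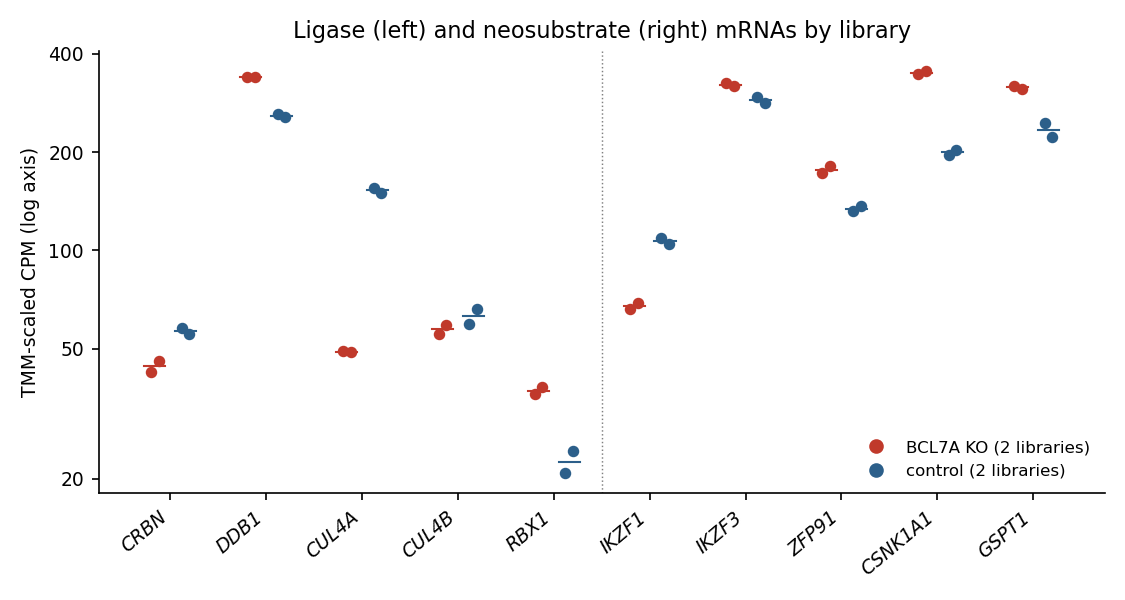
Level of each ligase gene (left of the dotted line) and neosubstrate gene (right) in TMM-scaled CPM on a log axis, with 1 point per library and a line at each group's mean (2 libraries per group). CUL4A shows the widest gap, 49.1 and 48.9 CPM in the KO against 156 and 150 CPM in controls, and CUL4B the narrowest.

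Within the ligase, the receptor and both scaffolds were lower in the KO libraries while the adaptor and the RING subunit were higher. CRBN (chromosome 3, 3144628 to 3179727, minus strand), the receptor to which the drugs bind, was 42.5 and 45.8 CPM under knockout and 57.8 and 55.5 CPM in controls. It fell by 0.36 on the log2 scale (SE 0.05, adjusted p = 4.14e-07), to 0.781 of the control level. Both KO libraries lay below both control libraries, and over 17 alternative analyses the log2 fold change ranged from -0.64 to -0.27, past the threshold in each.

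DDB1 (chromosome 11, 61299451 to 61342596, minus strand), the adaptor that all receptors of this ligase class share and that also serves in repair of ultraviolet damage, was 340.3 and 339.9 CPM under knockout and 261 and 256 CPM in controls. It rose 1.32-fold (log2 fold change 0.40, SE 0.03, adjusted p = 2.08e-13). RBX1 (chromosome 22, 40951347 to 40973309, plus strand), the RING subunit common to most cullin ligases, was 36.3 and 38.1 CPM against 20.8 and 24.4 CPM. It rose 1.64-fold (log2 fold change 0.71, SE 0.07, adjusted p = 3.35e-10), the second largest rise among the 10 in this fit.

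CUL4A (chromosome 13, 113208193 to 113267108, plus strand) changed most of the 10. It was 49.1 and 48.9 CPM under knockout and 156 and 150 CPM in controls, 3.11-fold lower in the KO (log2 fold change -1.64, SE 0.04, adjusted p = 2.27e-24). Its paralog CUL4B (chromosome X, 120524609 to 120575794, minus strand) was 55.5 and 59.3 CPM against 59.7 and 66.1 CPM, so the lowest control library lay just above the highest KO library. CUL4B fell by 0.13 on the log2 scale (SE 0.05, adjusted p = 0.0200), the weakest call among the 10. The call was lost with DESeq2 (adjusted p = 0.143), with no filter on low counts (0.409), without KO replicate 1 (0.321) and without control replicate 2 (0.252).

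Together the 2 scaffold mRNAs came to 105 and 108 CPM under knockout and 215 and 216 CPM in controls, 2.03-fold more in control. Per kilobase of the longest coding transcript, CUL4A made up 43.4% and 41.6% of the pair in the KO and 69.3% and 66.3% in the control libraries. CUL4A was thus the more abundant scaffold mRNA in both control libraries and CUL4B in both KO libraries.

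Among the neosubstrates, IKZF1 was lower and the other 4 were higher in the KO libraries. IKZF1 (chromosome 7, 50304068 to 50405101, plus strand), a zinc finger factor of lymphoid development, was 66.4 and 69.0 CPM under knockout and 109 and 105 CPM in controls. It was 1.58-fold lower in the KO (log2 fold change -0.66, SE 0.04, adjusted p = 8.55e-15). IKZF3 (chromosome 17, 39757715 to 39864188, minus strand), its relative in later B cell and plasma cell stages, was 325 and 319 CPM against 294 and 283 CPM. It rose by 0.16 on the log2 scale (SE 0.03, adjusted p = 1.31e-05), a small gain that did not hold under all scalings of the libraries.

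Both factors belong to the lymphoid program, and markers of other lymphoid stages moved in the same comparison. Of 7 B cell markers, 4 were lower and 1 (CD79B) was higher in the KO libraries, with summed levels of 32.1 to 34.4 CPM under knockout and 186 to 192 CPM in controls. CD22 had 0 counts in both KO libraries, but only 4 and 3 in the control libraries, and was not tested. Of 5 T cell markers, 3 were lower, with summed levels of 14.1 CPM in each KO library and 26.0 CPM in each control library, nearly all from CD3E, and CD3D had 0 counts in all libraries. The part of these differences in the levels of IKZF1 and IKZF3 was not tested, and in bulk RNA fewer cells of a type and less RNA per cell cannot be told apart.

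ZFP91 (chromosome 11, 58579111 to 58621042, plus strand), a zinc finger protein that is itself a ubiquitin ligase, was 173 and 181 CPM under knockout and 132 and 137 CPM in controls. It rose 1.32-fold (log2 fold change 0.40, SE 0.03, adjusted p = 1.74e-11). CSNK1A1 (chromosome 5, 149492197 to 149551552, minus strand) encodes casein kinase 1 alpha, the lenalidomide target in myelodysplastic syndrome with a deleted long arm of this chromosome. It was 346 and 355 CPM under knockout and 197 and 203 CPM in controls, 1.75-fold higher in the KO (log2 fold change 0.81, SE 0.03, adjusted p = 5.22e-20), the largest rise among the 10. GSPT1 (chromosome 16, 11868128 to 11916082, minus strand) encodes the translation termination factor eRF3a, captured by a later cereblon modulator. Its levels were 320 and 313 CPM under knockout and 246 and 223 CPM in controls, a 1.35-fold rise (log2 fold change 0.43, SE 0.04, adjusted p = 1.83e-08).

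Small changes depended on how the libraries were scaled. Against TMM, the median over all genes moved on the log2 scale by -0.13 with upper-quartile factors, by -0.19 when the median of genes with at least 10 CPM was set to 0, and by -0.28 with library totals alone. The split of called genes, 6506 higher and 7123 lower with TMM, became 5099 and 8610 in the second case and 4493 and 9346 in the third. The sign and the call held in all 5 scalings for 9 of the 10 genes. IKZF3 was the exception, with a log2 fold change of 0.02 (adjusted p = 0.450) with upper-quartile factors, -0.04 (adjusted p = 0.253) with the median set to 0 and -0.12 (adjusted p = 3.02e-04) with library totals. The smallest sizes among the genes that rose under every scaling came with library totals, 0.11 for ZFP91, 0.12 for DDB1 and 0.15 for GSPT1. CSNK1A1 kept 0.53 and RBX1 0.43 under the same scaling.

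**Figure D2:**
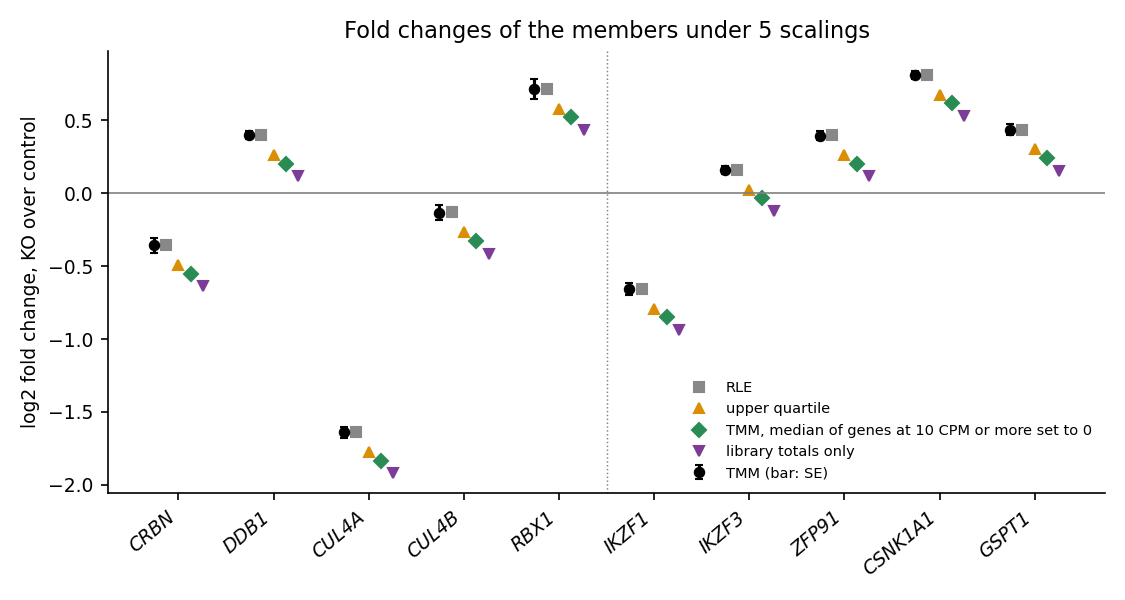
Log2 fold change, KO over control, of each gene under 5 scalings of the libraries, with ligase genes left and neosubstrates right of the dotted line; bars on the TMM points are the SE of the edgeR fit. Each gene moves down by about the same amount from TMM to library totals, and only the points of IKZF3 lie on both sides of 0.

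Ratios of 2 genes within a library do not depend on that scaling. CUL4A over CUL4B counts were 0.885 and 0.825 in the KO libraries and 2.60 and 2.27 in the control libraries, so the log2 ratio differed by -1.51 between groups. IKZF1 over IKZF3 counts were 0.205 and 0.216 in the KO and 0.370 in each control library, a log2 difference of -0.82. The Ikaros share of this pair was therefore lower in both KO libraries whichever scaling was used.

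The receptor was also lower against its adaptor. CRBN over DDB1 counts were 0.125 and 0.135 in the KO and 0.221 and 0.217 in the control libraries (log2 difference -0.76). Against CUL4A the receptor stood higher, with CRBN over CUL4A counts of 0.865 and 0.936 in the KO and 0.372 and 0.370 in the control libraries (log2 difference 1.28). GSPT1 over ETF1, the gene of its partner eRF1, went from 1.34 and 1.25 in the control to 0.800 and 0.772 in the KO libraries (log2 difference -0.72). CSNK1A1 over CSNK1D, a related kinase, went from 2.49 and 2.71 in the control to 3.91 and 4.02 in the KO libraries (log2 difference 0.61). In all 6 pairs the difference between groups was over 9 times the pooled SD of the replicates, which lay between 0.0403 and 0.111 on the log2 scale. The exact two-sided permutation test gave p = 0.333 for each pair (0.333 after Benjamini-Hochberg adjustment), the smallest that 2 against 2 libraries allow.

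Per kilobase of the longest coding transcript, DDB1 was the most abundant of the 10 mRNAs in both groups, at 75.5 ± 0.0738 CPM per kb in the KO and 57.4 ± 0.916 CPM per kb in the control libraries. CSNK1A1 (57.8 ± 1.01) and GSPT1 (44.5 ± 0.667) came next in the KO libraries. ZFP91 (33.9 ± 1.09), IKZF3 (32.9 ± 0.392) and RBX1 (31.3 ± 1.12) followed, each separated from the next by about the sum of their SDs or less. CRBN stood at 19.9 ± 1.05, CUL4B at 11.7 ± 0.548, IKZF1 at 10.7 ± 0.296 and CUL4A at 8.65 ± 0.0236. In the control libraries GSPT1 (33.0 ± 2.35) and CSNK1A1 (32.9 ± 0.769) did not differ beyond their spread, nor did ZFP91 (25.8 ± 0.591) and CRBN (25.5 ± 0.741). Control values of the others were 29.5 ± 0.840 for IKZF3, 26.97 ± 0.680 for CUL4A, 19.0 ± 2.13 for RBX1, 17.0 ± 0.489 for IKZF1 and 12.8 ± 0.915 for CUL4B.

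This order rests on the length used. Over the union of annotated exons, which is far longer for DDB1 and CRBN, CSNK1A1 led in the KO and GSPT1 in the control libraries, and CRBN had the lowest mean of the 10 in both groups. In controls GSPT1 and IKZF3, and likewise CRBN and RBX1, lay within their spread and changed places between the libraries. Under both lengths, IKZF3, ZFP91, CSNK1A1 and GSPT1 each lay above CRBN, CUL4B and IKZF1 in both groups, although ZFP91 and CRBN in the control libraries differed by less than their spread.

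Each gene was also set beside the nearest 10 tested genes on each side with at least 10 CPM. The neighbours of CUL4A at the end of chromosome 13 (20 genes, 108218379 to 114337626) had a median log2 fold change of -1.26, with 17 of 20 lower and 2 higher in the KO libraries. CUL4A at -1.64 lay below 17 of these 20. LAMP1 (-1.28), a lysosomal membrane protein gene, TFDP1 (-1.02), the gene of an E2F partner, and CDC16 (-1.29), an anaphase-promoting complex subunit gene, were all lower with it. GAS6 (0.58) and RASA3 (1.05), in the same stretch, were higher. Over the whole of chromosome 13, 43.7% of the 135 other genes with at least 10 CPM were lower and 37.0% higher. Their median log2 fold change was -0.03, so the shift near CUL4A did not extend over the chromosome. Whether the lower CUL4A level belongs to the gene or to the stretch was not tested. These 3 lower and 2 higher examples were chosen after their values were seen.

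**Figure D3:**
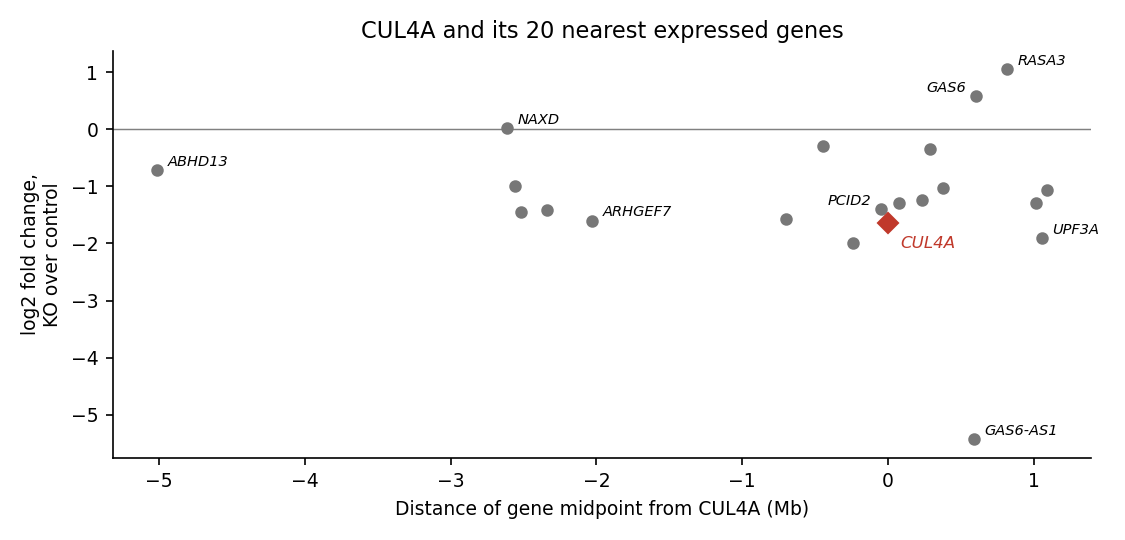
Log2 fold change, KO over control, of CUL4A (red diamond) and of the 20 nearest tested genes with at least 10 CPM (grey points) against the distance of each gene's midpoint from that of CUL4A in megabases. Most points lie between -2 and 0 on both sides of CUL4A, with GAS6 and RASA3 above 0 and GAS6-AS1 at -5.43.

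CSNK1A1, on chromosome 5, lay among genes that were mostly higher. Its 20 neighbours (143277931 to 150759109) had a median of 0.67, 17 of them higher and 1 lower, the latter being CD74 at -7.55. Over the whole chromosome, 84.3% of the 428 other genes with at least 10 CPM were higher in the KO libraries, against 54.2% of all such genes. CSNK1A1 at 0.81 lay above 14 of its 20 neighbours, 0.14 over their median. The neighbours of IKZF1 on chromosome 7 had a median of -0.27 (12 of 20 lower), and IKZF1 at -0.66 lay below 12 of them. The median was -0.50 with 20 genes on each side and -0.57 with neighbours of at least 1 CPM. Over the whole of chromosome 7, 54.7% of the 459 other genes with at least 10 CPM were lower in the KO libraries, against 31.7% of all such genes.

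The other members stood at varied distances from their neighbours. GSPT1 (0.43) lay above 17 of 20 neighbours with a median of -0.18, and IKZF3 (0.16) above 16 of 20 with a median of -0.19. RBX1 (0.71) exceeded 18 of 20 neighbours with a median of 0.30, of which 14 were also higher. CUL4B (-0.13) lay below 14 of 20 neighbours with a median of 0.38. DDB1 (0.40) stood over a median of 0.01, ZFP91 (0.40) beside one of 0.32, and CRBN (-0.36) below one of -0.10. With neighbours of at least 1 CPM the medians became -0.42 for CRBN, 0.054 for ZFP91, 0.054 for CUL4B, -0.34 for IKZF3 and -0.043 for DDB1. CRBN then lay slightly above the median of its neighbours. CRBN lies near the end of its chromosome arm and had only 11 neighbours with at least 10 CPM. These are descriptions of position, with no test.

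**Figure D4:**
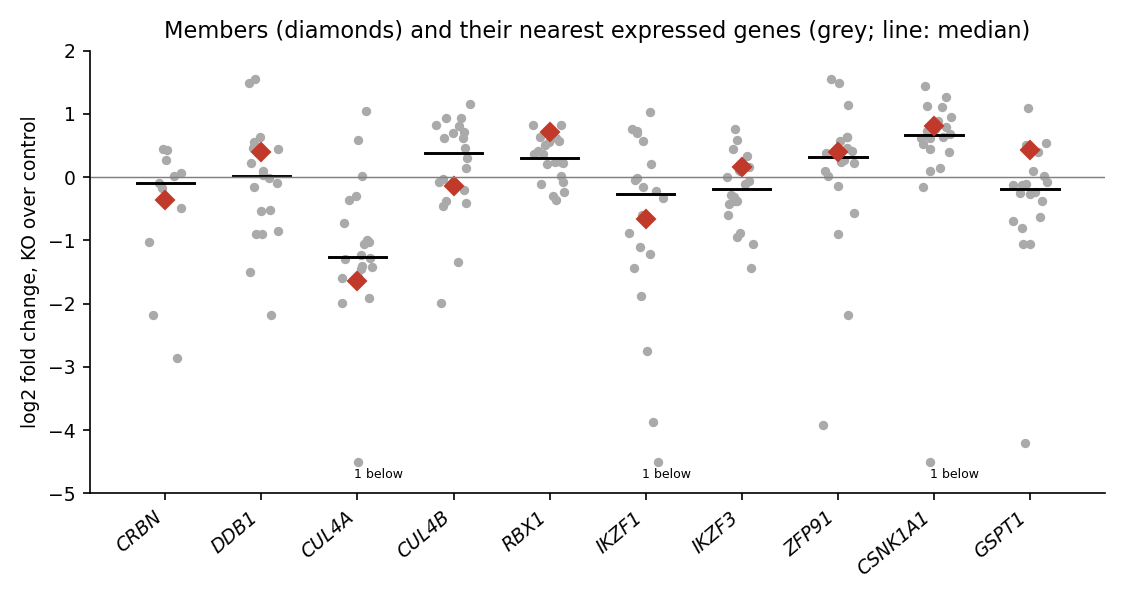
Log2 fold change, KO over control, of each gene (red diamond) and of up to 20 nearest tested genes with at least 10 CPM (grey points), with a black line at the neighbours' median; points beyond the lower end of the axis are drawn at that end and counted. CUL4A and CSNK1A1 lie near shifted medians of -1.26 and 0.67, whereas GSPT1 and RBX1 lie near the top of their neighbours.

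Some of these genes overlap others, and although the labels name a stranded library kit, the strand setting of the counting is not given in the sources used here. CRBN overlaps TRNT1, a tRNA processing gene on the opposite strand, whose counts came to 84.4% of those of CRBN. TRNT1 was 43.8 ± 1.06 CPM under knockout and 36.4 ± 1.01 CPM in controls, thus higher where CRBN was lower. The start of CUL4A overlaps PCID2 on the opposite strand, whose counts came to 44.0% of those of CUL4A. PCID2 fell as CUL4A did, from 63.1 ± 2.70 to 23.9 ± 1.43 CPM (SD, n = 2 per group). AC021078.1 lies inside CSNK1A1 on the same strand with 12.9% of its counts, and rose by a log2 fold change of 0.62. The read-through gene ZFP91-CNTF held 0.262% of the counts of ZFP91. DDB1 is overlapped on the opposite strand by TKFC, with 7.92% of its counts and a log2 fold change of -0.15 (adjusted p = 0.0960). Levels of CRBN, CUL4A, CSNK1A1 and, to a smaller share, DDB1 carry this uncertainty.

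The lists of related genes below are to be read against the background given above, 36.4% higher and 39.8% lower of all tested genes, and 54.2% and 31.7% of those averaging 10 CPM or more. List counts with library totals are to be read against that scaling, where 4493 of all 17885 tested genes were higher and 9346 lower. No list was tested against other genes. Of 14 genes of neddylation and cullin exchange, which switch cullins on and swap their receptors, 9 rose and 2 fell (median 0.21). DCUN1D5, a neddylation cofactor, was 104 CPM in each KO library against 45.5 and 45.1 CPM in control, and NAE1, a subunit of the NEDD8-activating enzyme, 77.1 and 77.2 against 41.1 and 34.8 CPM. DCUN1D1 rose by a log2 fold change of 0.70. CAND2, a cullin exchange factor, had 1 count in the KO and 136 in the control libraries (3.62 and 2.97 CPM), 236-fold more in control with an exact 95% Clopper-Pearson counting interval of 41.6 to 9384. With library totals as the scaling, 3 genes of this list rose and 5 fell.

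The COP9 signalosome, which strips NEDD8 from cullins, had 8 of 10 genes higher and 1 lower (median 0.52). COPS5, its catalytic subunit, was 159 and 162 CPM under knockout and 77.1 and 79.6 CPM in controls. COPS3 was 109 and 110.0 CPM against 43.4 and 44.4 CPM, GPS1 102 and 96.5 against 46.9 and 47.7, and COPS2 rose by a log2 fold change of 0.54. With library totals, 6 of these 10 were still higher and 2 lower.

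Among 9 ubiquitin-activating and ubiquitin-carrying enzymes that work with cullins, 5 rose and 3 fell (median 0.27). UBE2G1, the carrier that extends ubiquitin chains on neosubstrates, was 176 and 181 CPM under knockout and 81.3 and 80.2 CPM in controls. UBE2D3, which acts before it, was 323 and 335 against 227 and 246 CPM. UBE2D4 fell, with 15.2 and 15.5 against 36.0 and 32.5 CPM, and UBA1 had a log2 fold change of 0.31 that was 0.03 and not past the threshold with library totals (adjusted p = 0.284). With that scaling 2 of the list rose and 4 fell. UBE2G1 still had at least 0.86 in every alternative.

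DDB1 also serves other receptors. Of 24 DDB1-binding receptors and partners, 13 rose and 7 fell (median 0.24), and with library totals 10 rose and 12 fell. DDB2, the ultraviolet damage receptor and a p53 target, rose most in this list, with 74.3 and 76.5 CPM in the KO against 26.5 and 23.3 CPM in controls. DCAF6 was 157 CPM in each KO library against 70.6 and 72.6 CPM, and PHIP rose by 0.66. DCAF10 went the other way, with 27.03 and 28.9 CPM in the KO against 65.3 and 62.9 CPM in control. Among 7 genes of other cullin ligases, 3 rose and 1 fell. CUL5 (0.50), CUL3 (0.31) and CUL1 (0.25) rose and RNF7, the RBX1 paralog, had -0.25. With library totals CUL3 was 0.03 and CUL1 -0.03. The 3.11-fold difference in CUL4A was larger than that of any of these 7.

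Of 23 other genes reported as cereblon neosubstrates, 8 rose and 7 fell (median 0.05). With library totals 1 rose and 14 fell, beside 4493 higher and 9346 lower of all 17885 tested genes. ZNF827, a zinc finger gene, was 0.797 and 0.866 CPM in the KO against 14.9 and 12.8 CPM in controls (log2 fold change -4.04, SE 0.18). ZBTB39 was 30.6 CPM in each KO library against 46.2 and 52.0 CPM, and WEE1, a kinase that restrains entry into mitosis, 53.8 and 56.1 against 73.6 and 72.7 CPM. WIZ rose, with 65.5 and 66.7 against 42.9 and 45.5 CPM. The paralogs of members split as well, with 4 of 9 tested higher and 3 lower. GSPT2, the GSPT1 paralog, was 12.6 and 12.9 CPM against 21.3 and 18.7 CPM, opposite in direction to GSPT1. CSNK1E fell by 0.69, whereas CSNK1G3 (0.72) and CSNK1G2 (0.38) rose. With library totals 2 of these 9 rose and 4 fell.

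Genes tied to the members' functions were mixed. Of 5 reported cereblon clients, 3 rose and 2 fell. GLUL, glutamine synthetase and a cereblon substrate without drug, was 13.5 and 12.6 CPM under knockout and 20.1 and 21.4 CPM in controls. MEIS2, a homeobox substrate, also fell (log2 fold change -0.57), while SLC16A1, a lactate transporter, and PRKAA1, a subunit of AMPK, rose by 0.48 and 0.75. NuRD is the chromatin complex that Ikaros factors bring to DNA. Of its 13 genes, 5 rose and 4 fell, with 3 and 9 by library totals. MTA1 was 92.8 and 92.7 CPM against 253 and 249.7 CPM and CHD3 8.71 and 10.6 against 41.3 and 43.3 CPM, whereas RBBP4 (1.08) and HDAC1 (0.58) rose.

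The partners of GSPT1 in translation termination and mRNA surveillance had 10 of 14 genes higher and 3 lower (median 0.33), beside 54.2% higher and 31.7% lower among all tested genes averaging 10 CPM or more. ETF1, on chromosome 5, was 399.7 and 405 CPM in the KO against 184 and 178 CPM in controls, and ABCE1, the ribosome recycling factor gene, 286 and 282 against 155 and 159 CPM. PABPC1 rose by 0.39. UPF3A, which lies among the neighbours of CUL4A, was 23.5 and 24.8 against 89.5 and 91.4 CPM. With library totals 7 rose and 5 fell. For the beta-catenin and p53 regulators with which CSNK1A1 acts, 6 of 10 rose and 3 fell, or 3 and 6 by library totals. MDM2 was 1994 and 2025 CPM against 1083 and 1032 CPM and APC rose by 0.76, while AXIN1 (-0.91) and BTRC (-0.77) fell. Over all lists, the 8 genes on chromosome 5 were all higher, and 66 of 130 tested genes elsewhere were. Among genes averaging 10 CPM or more, 84.3% on chromosome 5 (CSNK1A1 left out) and 54.2% of all tested were higher. These counts are therefore not a result about the list genes.

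**Figure D5:**
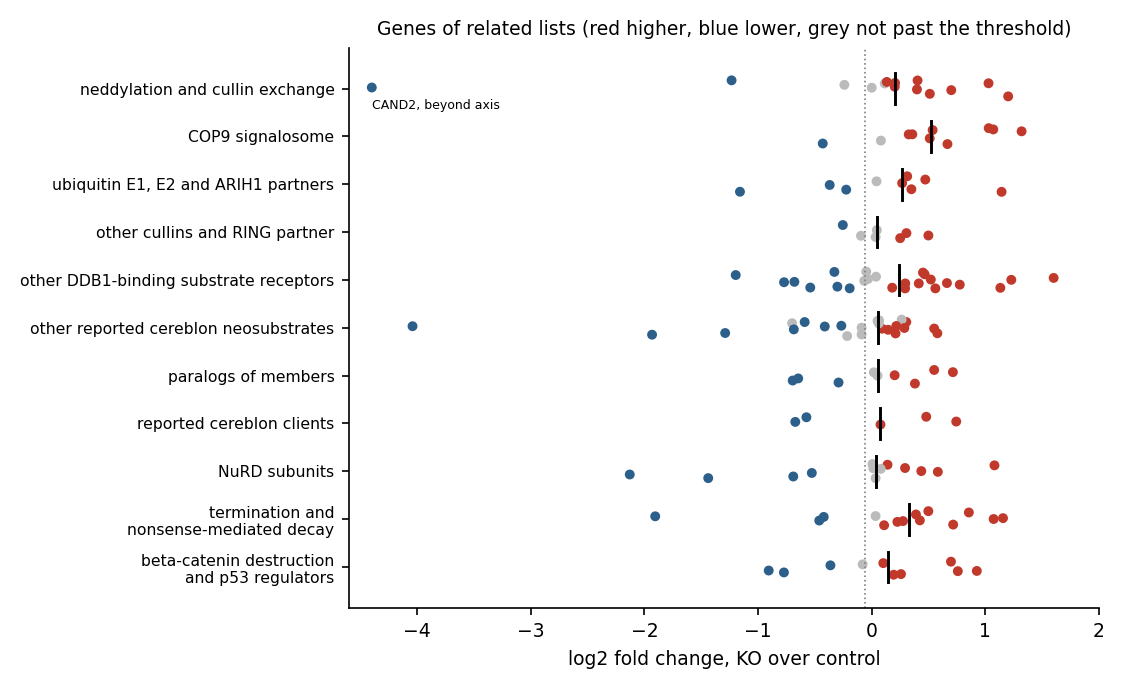
Log2 fold change, KO over control, of the tested genes of 11 related lists, with red points higher and blue points lower past the threshold, grey points not past it, a black line at each list's median and a dotted line at the median of all tested genes (-0.06). COP9 signalosome genes lie furthest to the right with a median of 0.52, and CAND2 lies beyond the left end of the axis.

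The genes that IKZF1 and IKZF3 are known to sustain in myeloma moved little with TMM scaling. IRF4 was 1716 and 1733 CPM under knockout and 1487 and 1475 CPM in controls, and MYC 497 and 498 against 560 and 553 CPM. Their log2 fold changes of 0.22 and -0.16 became -0.06 and -0.44 with library totals, so the direction of IRF4 was not settled. By likeness of centred log2 CPM over the 4 libraries, the genes nearest to CRBN were GSK3B, ZNF770 and RNF157 (root mean square distance 0.0119 to 0.0123). CROCC, WDR81 and ZNF609 were nearest to IKZF1 and WDFY1, TUSC2 and TECPR2 to IKZF3. With 4 libraries in 2 groups such likeness is common, as 223 genes lay within 0.05 of CRBN.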

How the data were processed

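RNA-seq libraries (2 KO and 2 control) of NCI-H929 cells were compared. The deposited table holds estimated counts per gene, made by the authors with Salmon 0.12 against GRCh38, per the submitters' processing notes; the sources used here give neither the gene annotation nor the strand setting. Values were used as given in that table, and 92 spike-in rows (0 to 5 counts per library) were left out. All 56809 gene names matched GENCODE release 29, which gave positions, lengths and sequences. Genes passing filterByExpr were fitted with edgeR 4.0.16 in R 4.3.3 (TMM factors, robust quasi-likelihood, no covariate), with Benjamini-Hochberg adjustment over all 17885 tested genes and a threshold of 0.05. The SE is the log2 fold change divided by the root of the F statistic. CPM use TMM-scaled totals. Library totals ranged from 17567202 to 40799624, and the biological coefficient of variation was 2.32%. The fit was also run on simulated data in which few genes changed, unlike the data here, so that run does not bear on the scaling.

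The members and lists were chosen with earlier results of these data known, so their counts are descriptions. Named from each list were up to 4 genes with the smallest p and any gene at 0 counts in one group and at least 1 CPM in the other, besides the ratio pairs, IRF4, MYC and, for CRBN, IKZF1 and IKZF3, the 3 genes of most similar pattern. The alternatives comprised other scalings, filters, thresholds and a thinned KO depth, DESeq2 1.42.0, limma-voom (limma 3.58.1), a replicate block and each library left out. Library totals as the scaling and a crossed block were chosen after seeing the data. Intervals cover counting error only.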

Additional observations from a re-analysis of the deposited data

How the results depend on the processing

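Over all alternatives, 263 values were kept, 16 moved by more than the replicate spread, 6 lost the call and 3 reversed. Kept fold changes held their direction and side of the threshold, and kept ratios and neighbour medians moved by less than the replicate spread. Numbers of genes past the threshold were kept if within a fixed fold of the main number. The shift from 6506 higher and 7123 lower to 4493 and 9346 with library totals is therefore among the 263. CUL4B lost its call with no filter on low counts (-0.050), with DESeq2 (-0.13) and at an adjusted p of 0.01 (-0.13), and ranged from -0.20 to -0.070 with 1 library left out. IKZF3 was 0.024 with upper-quartile factors and reversed to -0.036 with the median set to 0 and to -0.12 with library totals. The cause was not tested.

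Neighbour medians depended on the neighbourhood. With 20 genes on each side they were -0.18 for CRBN, 0.034 for DDB1, 0.32 for CUL4B, 0.24 for RBX1, -0.50 for IKZF1, -0.30 for IKZF3, 0.24 for ZFP91 and -0.24 for GSPT1. With neighbours of at least 1 CPM they were -0.42 for CRBN, -0.043 for DDB1, which reversed, 0.054 for CUL4B, 0.24 for RBX1, -0.57 for IKZF1, -0.34 for IKZF3, 0.054 for ZFP91, 0.57 for CSNK1A1 and -0.24 for GSPT1.

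Same-numbered libraries did not deviate together (r = -0.20 over 9537 genes), so the numbers were not taken as pairs. With the replicate block, 6365 genes were higher and 6922 lower, and with the crossed block 6416 and 6943; neither changed a call of the 10 genes. With 1 library left out, the lone library of its group being assumed to vary like the others, 12363 to 13102 genes passed. Depth differed with the group, and thinning the KO counts to the control depth changed no call of the 10 genes.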
